A study of Mus musculus with 6 samples.

Results

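The hypoxia response and glycolysis genes described here are 49 genes taken by symbol, chosen with earlier results of these data known. They comprise 21 genes of glucose transport and glycolysis, 20 other genes known as targets of the hypoxia-inducible factors (HIFs), and 8 genes that encode HIF subunits or oxygen sensors. Vhl, which acts after the sensors, is counted with them. All 49 were matched to at least 1 array probe through its RefSeq accession, and 47 entered the test among 24221 named genes and unnamed probes, 13443 of them named. Each of the 47 was well above background on all 6 arrays, so none entered through 1 genotype alone. The other members, Pfkfb2 and Mxi1, were not well above background on any array and are given no value here.

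The samples were endothelial cells, the lining cells of blood and lymph vessels, sorted by flow cytometry from mouse skin, with no treatment named. The 3 wild-type samples and the 3 samples without APJ (the receptor for apelin, gene symbol Aplnr) share the strain C57Bl/6J, and the knockout is labelled APJ KO with no further allele or Cre driver named. The labels used here give no age and no sort markers, although the scanner file names carry an embryonic stage. Each sample is numbered as 1 mouse, so the p-values measure the spread between these 6 samples, and their number limits the precision. Whether a lower signal means fewer cells of a type or less RNA per cell cannot be told apart in such bulk samples.

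Glycolysis splits glucose to pyruvate in the cytosol, and lactate dehydrogenase turns pyruvate to lactate, which leaves the cell through monocarboxylate transporters. Endothelial cells are known to draw much of their energy from glycolysis, with the PFKFB enzymes setting its pace during vessel sprouting. When oxygen is short, the prolyl hydroxylases encoded by Egln1, Egln2 and Egln3 no longer mark HIF-α subunits for destruction by the von Hippel-Lindau protein. HIF-α then pairs with ARNT and raises transcription of glycolytic, angiogenic, mitophagy and collagen-modifying genes.

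Signals of most glycolytic genes and other HIF targets were higher in APJ-deficient cells, by small amounts, while differences of HIF subunits and oxygen sensors centred on 0. Of the 47 tested members, 38 had a log2 difference (APJ knockout minus wild type) above 0. That is 80.9%, against 43.5% of everything tested and 46.3% of named genes tested. Since the members were chosen with earlier results of these data known, such shares describe them and test nothing. The median difference was 0.23 over the members and -0.02 over everything tested. In 24 members, 51.1% of those tested, all 3 knockout arrays lay above all 3 wild-type arrays, against 6.37% of everything tested. Among named genes tested that share was 7.3%. Only 1 member, Hif3a, had all knockout arrays below the wild-type arrays, against 5.86% of everything tested. The 24 differences ran from 1.11-fold to 2.55-fold, and 5 of the 47 members differed by more than 0.5 on the log2 scale, all of them higher.

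No member passed the test, a limma adjusted p under 0.05 over everything tested, which 0.367% of features passed as higher and 0.186% as lower. At an unadjusted limma p under 0.05, 20 members were higher and 0 lower, against 4.45% and 3.58% of everything tested. The smallest absolute difference that passed anywhere on the array was 0.61, and most members differed by less. With the slide as a block 1 member, Slc16a3, passed, of 286 features in all. That model gave 25 members higher and 1 lower at an unadjusted limma p under 0.05, against 7.04% of everything tested as higher. Blocking on the replicate number, 0 members of 5 features passed, with 25 members higher and 2 lower unadjusted, against 7.57% as higher. With an intensity trend in the variance model 0 members of 198 features passed, with 22 higher and 0 lower unadjusted, against 4.31% as higher.

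By group, glycolysis had 19 of 20 members above 0 with a median difference of 0.26, and 12 members (60%) without overlap, all higher. Other HIF targets had 15 of 19 above 0 with a median of 0.26, and 11 (57.9%) without overlap, all higher. HIF subunits and oxygen sensors had 4 of 8 above 0 with a median of 0.00. In each direction 1 member (12.5%) was without overlap, against 6.37% of everything tested as higher and 5.86% as lower. The plot of each member's difference shows this order, with the filled points of the first 2 groups to the right of 0.

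**Figure D1:**
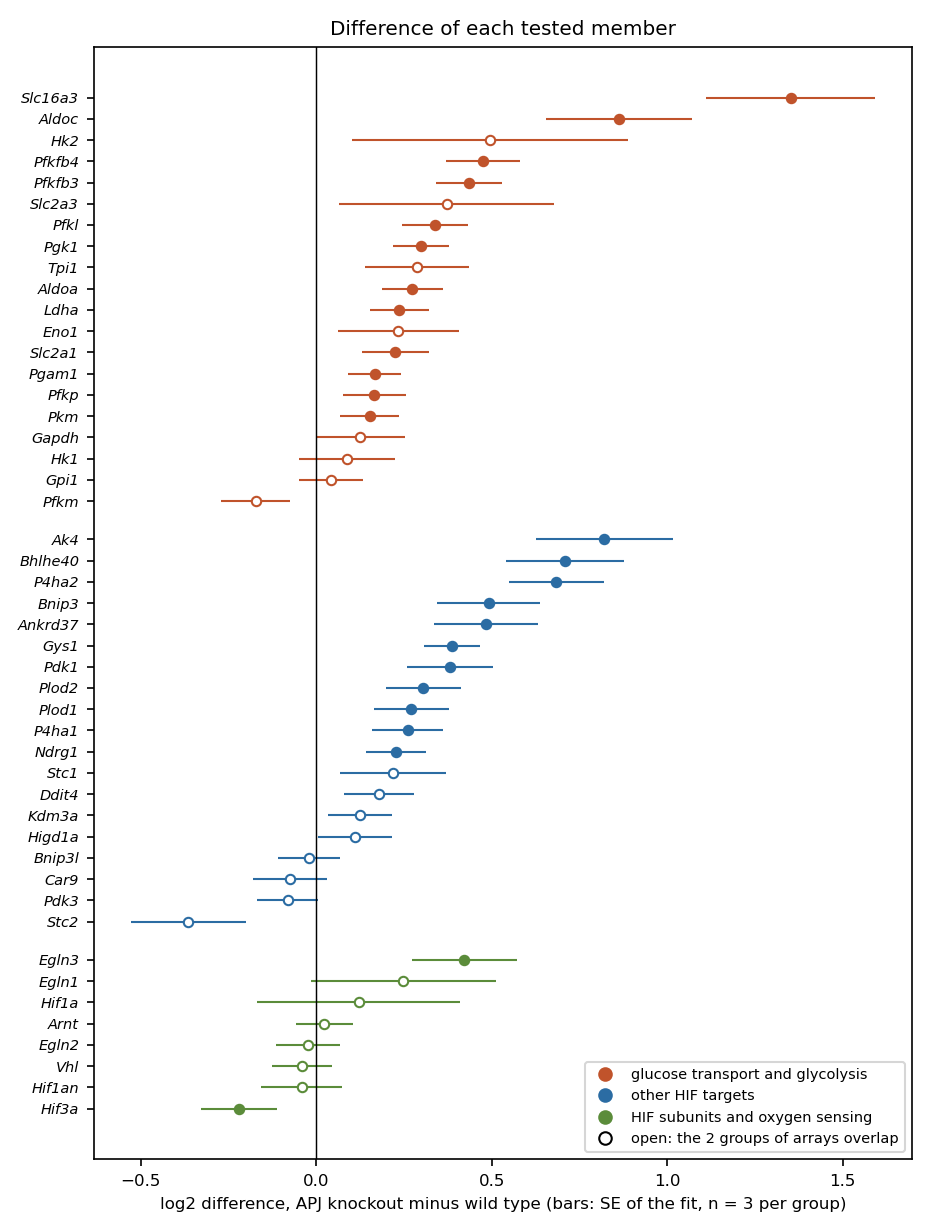
Log2 difference, APJ knockout minus wild type, of the 47 tested members by group, with the SE of the fit (n = 3 arrays per group); open points mark members whose wild-type and knockout arrays overlap. Slc16a3 stands at 1.35, most glycolytic genes and HIF targets between 0 and 0.9, and most HIF subunits and sensors around 0.

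Signal levels are log2 intensities relative to the 75th percentile of the same array, which lay between 252 and 400 intensity units. Between 50.3% and 58.0% of probes were well above background, with the higher shares on slide 2, which held replicate 3 of each genotype. Aplnr, the targeted gene on chromosome 2, read 3.35, 3.77 and 3.82 on the wild-type arrays and 1.89, 1.71 and 2.26 on the knockout arrays. It fell to 30.9% of wild type, a difference of -1.69 ± 0.19 (SE). The limma adjusted p was 0.0236, or 0.0786 once replicate numbers entered as a block. With 1 array left out its adjusted p lay between 0.0365 and 0.147, passing in the fit without APJ knockout replicate 3 and in no other. The position of the probe against the deleted part is not known here, so it checks the labels in part.

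All 12 pan-endothelial markers were well above background on every array, and their summed signal, in multiples of the 75th percentile, was 996 to 1090 in wild type and 1040 to 1130 in the knockout. Their median difference was 0.04, and 2 (16.7%) were higher without overlap, against 6.37% of everything tested. No marker in any of these lists passed the test. All 8 lymphatic endothelial markers were above 0 with a median of 0.54, and 6 (75%) were without overlap, against the same 6.37%. Their summed signal was 531 to 622 in wild type and 575 to 648 in the knockout. Of 10 tested macrophage markers 9 were above 0 with a median of 1.01, and 6 (60%) were without overlap, again against 6.37%. The summed signal of the 11 matched was 9.94 to 13.3 in wild type and 10.8 to 11.4 in the knockout. All 8 platelet markers were above 0 with a median of 0.26, and 3 (37.5%) were without overlap, against 6.37% of everything tested. Their summed signal was 6.5 to 7.05 in wild type and 8 to 10.1 in the knockout. All 8 tested keratinocyte markers were below 0 with a median of -1.17, and the summed signal of the 12 matched was 10.9 to 38.5 in wild type and 10.8 to 12.1 in the knockout, wild type replicate 3 holding the highest value. Erythroid markers summed to 187 to 350 in wild type and 208 to 371 in the knockout, and 6 of 6 tested were above 0 (median 0.26). Fibroblast markers summed to 4.27 to 6.56 in wild type and 3.33 to 7.96 in the knockout, with 2 of 7 above 0 (median -0.26). Mural cell markers summed to 3.39 to 4.36 in wild type and 3.61 to 4.36 in the knockout, with 3 of 6 above 0 (median -0.01). Myh11, Des, Dpt and Epb42 were among the matched markers that were not well above background on any array. The part of these cell types in the members' values was not tested.

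Among the genes that move glucose and lactate across the cell membrane, Slc16a3 had the largest difference of all members. Slc16a3 encodes the lactate exporter MCT4 (probe accession NM_030696, chromosome 11). It read 1.66, 1.86 and 2.55 on the wild-type arrays and 3.28, 3.26 and 3.58 on the knockout arrays. All knockout arrays were higher than any wild-type array, and wild type replicate 3 was the highest of its group. The mean was 2.02 (SD 0.47) for wild type against 3.37 (SD 0.18) for the knockout. The groups thus differed by 1.35 ± 0.24 (SE, limma adjusted p = 0.0932), or 2.55-fold. The call depended on the setting. Slc16a3 passed with the slide as a block (adjusted p = 0.0206), with arrays scaled to their median (0.047) and without wild type replicate 3 (0.0307), but not when replicate numbers were blocked (0.0895). Its other tested probe gave a difference of 1.39.

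The main glucose importer of endothelium, GLUT1, is encoded by Slc2a1, which read 5.21, 5.27 and 5.05 on the wild-type arrays and 5.36, 5.47 and 5.38 on the knockout arrays. The groups did not overlap, but the difference was only 0.23 ± 0.10 (SE, limma adjusted p = 0.64). Slc2a3, for the high-affinity importer GLUT3, read -0.80, -0.63 and 0.36 on the wild-type arrays and 0.06, -0.18 and 0.17 on the knockout arrays. Here wild type replicate 3 stood above every knockout array, and the difference was 0.66 within slide 1 and -0.20 within slide 2.

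The bifunctional PFKFB enzymes make and remove fructose 2,6-bisphosphate, the main activator of phosphofructokinase. Pfkfb3 read 1.52, 1.32 and 1.38 on the wild-type arrays and 1.76, 1.87 and 1.90 on the knockout arrays. The knockout arrays lay close together and above the wild-type arrays, with a difference of 0.44 ± 0.10 (SE, limma adjusted p = 0.164), or 1.35-fold. A second Pfkfb3 probe, designed on another transcript accession, gave -0.16. Pfkfb4 read -2.20, -1.98 and -1.90 on the wild-type arrays and -1.57, -1.57 and -1.51 on the knockout arrays. Its groups did not overlap either, and it differed by 0.48 ± 0.11 (SE, limma adjusted p = 0.172), or 1.39-fold, and by 0.28 with normexp background correction.

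Of the 15 glycolytic enzymes 14 were above 0 and 8 (53.3%) had no overlap, all higher, at steps from phosphofructokinase to lactate dehydrogenase. The share of everything tested that was higher without overlap was 6.37%. Aldoc, the aldolase isoform best known from brain, read -0.35, 0.03 and 0.47 on the wild-type arrays and 0.97, 0.77 and 1.00 on the knockout arrays. It differed by 0.86 ± 0.21 (SE, limma adjusted p = 0.218), or 1.82-fold, and the wild-type arrays were spread over almost as wide a range as the difference itself. Aldoa, the general aldolase that splits fructose 1,6-bisphosphate, read 7.88, 7.99 and 7.93 on the wild-type arrays and 8.19, 8.30 and 8.13 on the knockout arrays. Its difference was 0.27 ± 0.09 (SE, limma adjusted p = 0.414), with all knockout arrays higher than the wild-type arrays.

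Pgk1, for phosphoglycerate kinase, the first ATP-yielding step, read 6.30, 6.30 and 6.32 on the wild-type arrays and 6.63, 6.64 and 6.54 on the knockout arrays. The wild-type arrays differed from each other by little (SD 0.01), and the knockout arrays all lay higher, a difference of 0.30 ± 0.08 (SE, limma adjusted p = 0.271). Pfkl, the liver-type subunit of phosphofructokinase, read 2.08, 2.27 and 2.09 on the wild-type arrays and 2.48, 2.55 and 2.43 on the knockout arrays. It differed by 0.34 ± 0.09 (SE, limma adjusted p = 0.294) without overlap. Ldha, the lactate dehydrogenase subunit that favours lactate formation, read 8.03, 8.08 and 8.19 on the wild-type arrays and 8.30, 8.36 and 8.35 on the knockout arrays. Its difference of 0.24 ± 0.09 (SE, limma adjusted p = 0.498) was also without overlap, and its other tested probes gave 0.33 and 0.30.

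Other enzymes differed by smaller amounts. Pgam1 (phosphoglycerate mutase), Pfkp (the platelet-type phosphofructokinase) and Pkm (pyruvate kinase) were higher on all knockout arrays by 0.17, 0.17 and 0.15. Pgam1 had the tightest arrays of these, with an SD of 0.008 in wild type and 0.022 in the knockout (n = 3 each). In Tpi1, Eno1, Gapdh and Hk1 the groups overlapped, with differences of 0.29, 0.23, 0.13 and 0.09, and replicate 3 of each genotype, both on slide 2, was the highest of its group in all of them. Of these, Tpi1, Eno1 and Gapdh were higher in the knockout in 3 of 3 same-numbered pairs, and Hk1 in 2. Of everything tested, 17.1% were higher in every such pair. Gpi1, for glucose-6-phosphate isomerase, differed by 0.04. Hk2, the hexokinase known to be induced in hypoxia, read -2.11, -2.22 and -0.84 on the wild-type arrays and -1.49, -1.40 and -0.79 on the knockout arrays. Wild type replicate 3 again lay among the knockout arrays, and the difference was 0.50 ± 0.39, or 0.25 to 0.94 with 1 array left out. Within same-numbered pairs the Hk2 difference was 0.61, 0.82 and 0.05, and with the slide as a block the limma adjusted p was 0.258 for Hk2, 0.2 for Tpi1 and 0.276 for Eno1. Pfkm, the muscle-type phosphofructokinase, was the 1 glycolytic member below 0, at -0.17 ± 0.10. Whether copies of near-identical sequence, known for several of these enzymes, share signal with their probes was not tested.

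**Figure D2:**
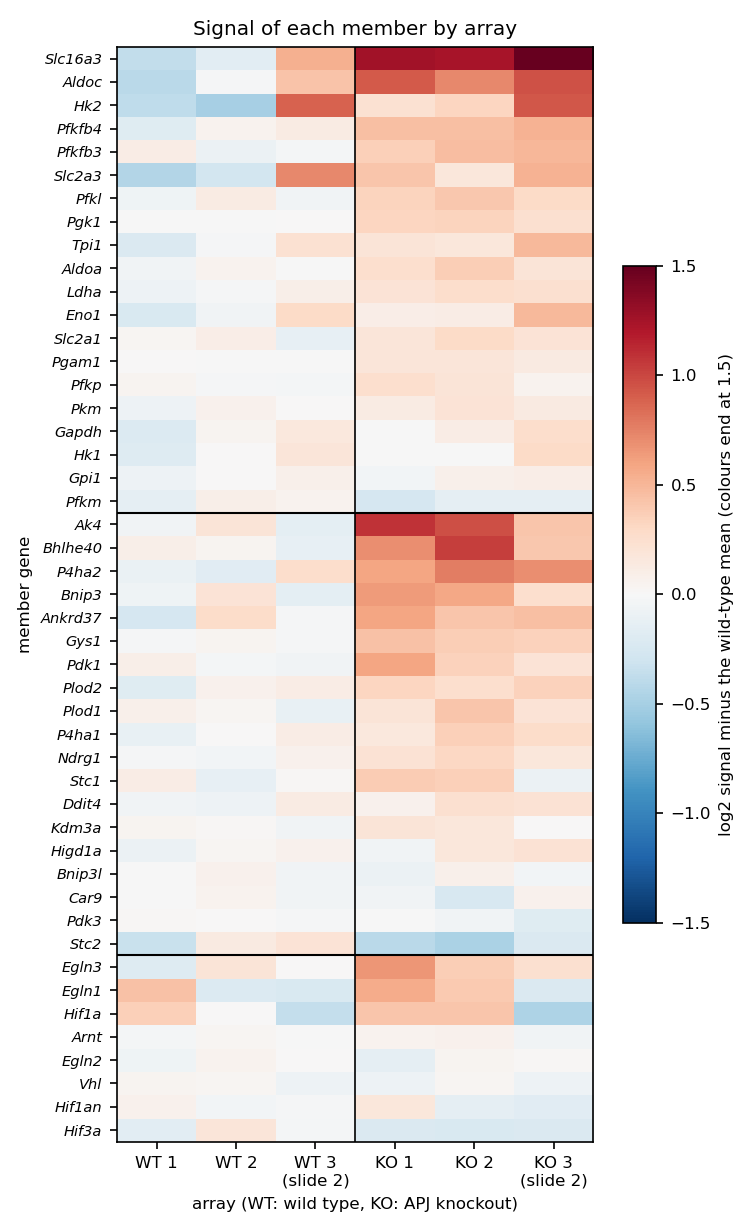
Signal of each tested member (rows, by group and in order of difference) on each array (columns), as log2 signal minus that gene's wild-type mean, with colours ending at 1.5 in either direction. Knockout columns are mostly red in the upper 2 blocks, wild type replicate 3 is red for Hk2, Slc2a3 and Slc16a3, and the lowest block has no common direction.

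Among HIF targets that redirect fuel, Ak4, Gys1 and Pdk1 were higher on every knockout array. Ak4, a mitochondrial adenylate kinase, read 0.02, 0.27 and -0.08 on the wild-type arrays and 1.16, 1.04 and 0.49 on the knockout arrays. Knockout replicate 3 was the lowest of its group but still above wild type, and the difference was 0.82 ± 0.20 (SE, limma adjusted p = 0.205), or 1.76-fold. Gys1, the glycogen synthase of non-liver tissue, read 1.18, 1.23 and 1.17 on the wild-type arrays and 1.63, 1.56 and 1.54 on the knockout arrays. Both groups were tight, with a difference of 0.39 ± 0.08 (SE, limma adjusted p = 0.142), although a second probe gave 0.12. Pdk1, a kinase that shuts pyruvate out of the mitochondrial cycle by inhibiting pyruvate dehydrogenase, read -0.04, -0.16 and -0.19 on the wild-type arrays and 0.46, 0.22 and 0.08 on the knockout arrays. It differed by 0.38 ± 0.12 (SE, limma adjusted p = 0.405). Pdk3, another kinase of that enzyme, differed by -0.08 ± 0.09, Higd1a, a mitochondrial protein, by 0.11 ± 0.11, and Car9, a cell-surface carbonic anhydrase that is a classical hypoxia marker, by -0.08 ± 0.11, all with overlap.

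Collagen-modifying enzymes, which hydroxylate proline or lysine in procollagen, were higher on all knockout arrays in 4 of 4 members, against 6.37% of everything tested. P4ha2, a catalytic subunit of prolyl 4-hydroxylase, read 0.50, 0.43 and 0.86 on the wild-type arrays and 1.19, 1.36 and 1.30 on the knockout arrays. Its difference was 0.68 ± 0.14 (SE, limma adjusted p = 0.123), or 1.61-fold, the second smallest adjusted p of the members. P4ha1, for the sister subunit, differed by 0.26 ± 0.10, and the lysyl hydroxylase gene Plod1 by 0.27 ± 0.11. Plod2, for another lysyl hydroxylase, read -2.28, -2.04 and -1.99 on the wild-type arrays and -1.78, -1.85 and -1.76 on the knockout arrays. It differed by 0.31 ± 0.11 (SE, limma adjusted p = 0.479), with the knockout arrays close above the higher wild-type arrays, and by 0.14 with normexp background correction.

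Of the 9 tested targets that act in transcription, mitophagy, growth control or secretion, 7 were above 0. No overlap was seen in 4 (44.4%), all higher, against 6.37% of everything tested. Bhlhe40, a repressor of the circadian clock family, read -0.27, -0.32 and -0.48 on the wild-type arrays and 0.34, 0.68 and 0.04 on the knockout arrays. The difference was 0.71 ± 0.17 (SE, limma adjusted p = 0.206), or 1.64-fold, with the knockout arrays themselves widely spread. Bnip3, a receptor for mitophagy, read 1.81, 2.08 and 1.72 on the wild-type arrays and 2.50, 2.45 and 2.12 on the knockout arrays. It differed by 0.49 ± 0.15 (SE, limma adjusted p = 0.35). Another tested Bnip3 probe gave 0.62, at a mean level of -4.1 and well above background on 5 of 6 arrays. The last gave -0.22 at a mean level of 0.78, with 1 low value on knockout replicate 2. Ankrd37, an ankyrin-repeat protein, read 1.76, 2.29 and 2.00 on the wild-type arrays and 2.60, 2.43 and 2.47 on the knockout arrays, and its difference was 0.48 ± 0.15 (SE, limma adjusted p = 0.367). Ndrg1, a stress-responsive growth regulator, was higher on all knockout arrays by 0.23 ± 0.09.

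The remaining targets of this kind overlapped between genotypes. Ddit4, an inhibitor of mTORC1 signalling, differed by 0.18 ± 0.10, Kdm3a, a histone demethylase, by 0.12 ± 0.09, and Bnip3l, the relative of Bnip3, by -0.02 ± 0.09, with its 4 probes between -0.02 and 0.05. The secreted stanniocalcins took opposite signs. Stc1 differed by 0.22 ± 0.15, with 0.38 within slide 1 and -0.10 within slide 2. Stc2 read -0.77, -0.30 and -0.22 on the wild-type arrays and -0.83, -0.90 and -0.65 on the knockout arrays, a difference of -0.36 ± 0.16, the lowest of all members, with wild type replicate 1 among the knockout values.

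**Figure D3:**
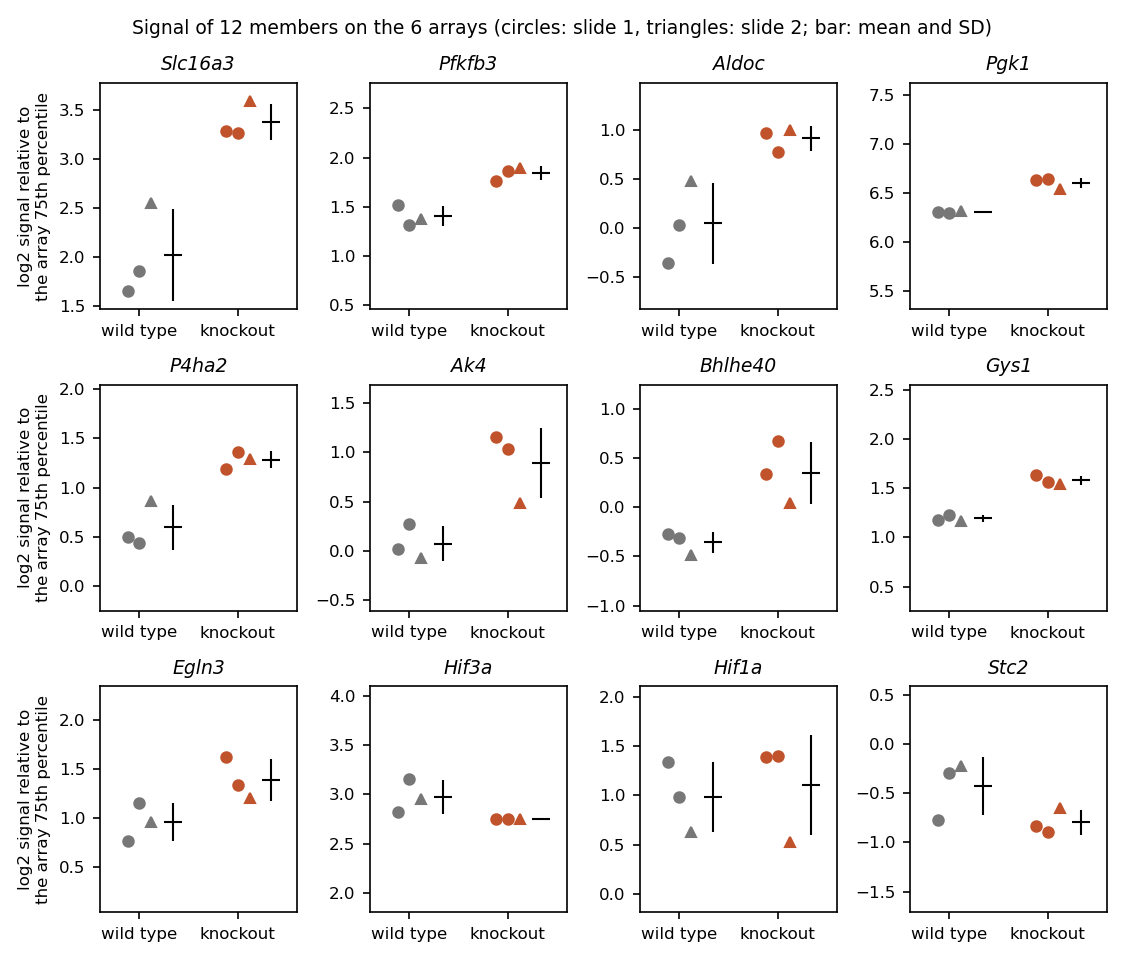
Log2 signal relative to the array's 75th percentile of 12 members on each array, grey for wild type and orange for knockout, circles for slide 1 and triangles for slide 2, with mean and SD (n = 3) beside them and the same span on every axis. The groups are apart in the first 9 panels and in Hif3a, where the knockout is lower, and overlap in Hif1a and Stc2.

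HIF binds the hypoxia response element, whose core is ACGTG or, less often, GCGTG. Both cores were searched on both strands in the 250 bases before each RefSeq start (GRCm38.p6), where 43 of the 49 members had 66 windows. Stc1, Bhlhe40, Ndrg1, Slc2a3, Plod2 and Bnip3l were not matched. ACGTG was found in 43.9% of the members' windows, 16.6% of all windows and 20.7% of windows of named genes that were tested. GCGTG was found in 56.1%, 28.2% and 42.5%. The palindrome CACGTG, an E-box that other factors also bind and that counts as ACGTG on both strands, was in 10.6%, 6.02% and 8.02%. By group, ACGTG was in 44.1% of glycolysis windows, 43.5% of other HIF target windows and 44.4% of oxygen sensing windows, and the median difference of that last group was 0.00. ACGTG was in 14 of the 21 matched genes that were higher without overlap and in 8 of the 19 whose arrays overlapped. GCGTG was in 15 of those 21 genes and in 12 of those 19. Among 10720 named genes that were tested and had windows, 2590 had ACGTG and 5140 had GCGTG. Gys1, without overlap, had neither core, while Hif1a, with overlap, had ACGTG 3 times. A match is only a match of letters.

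To show how such cores lie, 4 of these 14 genes, chosen after their values were seen, are printed 5′ to 3′ on the gene's strand, the cores in capitals (CACGT and CACGC being the other strand). In Pgk1 (chrX:106186850-106187099, plus strand) cores begin 150 and 131 bases before the start, in P4ha2 (chr11:54100674-54100923, plus strand) ACGTG begins 78 bases before it, and in Bnip3 (chr7:138909507-138909756, minus strand) an E-box holds both strands' core. For Slc16a3 (chr11:120949034-120949063, plus strand) the 30 bases with its 2 cores, which begin 27 and 14 bases before the start, are shown.
Pgk1: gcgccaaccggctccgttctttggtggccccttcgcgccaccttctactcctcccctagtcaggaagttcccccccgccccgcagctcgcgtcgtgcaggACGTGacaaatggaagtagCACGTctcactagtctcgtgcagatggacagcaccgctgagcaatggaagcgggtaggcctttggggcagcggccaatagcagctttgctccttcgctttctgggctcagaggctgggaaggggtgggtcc
P4ha2: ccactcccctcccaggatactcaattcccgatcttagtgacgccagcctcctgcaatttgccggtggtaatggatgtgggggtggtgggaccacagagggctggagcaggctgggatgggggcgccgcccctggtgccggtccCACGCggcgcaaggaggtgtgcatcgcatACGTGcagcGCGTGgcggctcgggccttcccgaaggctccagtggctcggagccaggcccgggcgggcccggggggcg
Bnip3: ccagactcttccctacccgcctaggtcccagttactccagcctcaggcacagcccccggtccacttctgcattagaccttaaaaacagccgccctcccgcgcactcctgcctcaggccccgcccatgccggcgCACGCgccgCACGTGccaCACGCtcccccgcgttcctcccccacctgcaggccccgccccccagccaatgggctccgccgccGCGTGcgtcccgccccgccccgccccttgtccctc
Slc16a3: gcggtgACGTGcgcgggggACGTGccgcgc

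Among genes of the oxygen-sensing machinery, Egln3 was higher and Hif3a lower on all knockout arrays, and the other 6 overlapped. Hif1a, the best-known oxygen-labile HIF-α subunit, read 1.34, 0.99 and 0.63 on the wild-type arrays and 1.40, 1.40 and 0.52 on the knockout arrays. Both slide 2 arrays were the lowest of their groups, and the difference of 0.12 ± 0.29 was smaller than its SE and changed sign in some fits with 1 array left out. Arnt, the constant partner subunit, differed by 0.02 ± 0.08. Vhl, which targets HIF-α for destruction, read 2.70, 2.70 and 2.59 on the wild-type arrays and 2.58, 2.69 and 2.58 on the knockout arrays, a difference of -0.04 ± 0.09, and its sign turned with another background correction. Hif1an, the asparagine hydroxylase FIH, differed by -0.04 ± 0.12. Protein levels and hydroxylation of HIF-α, where oxygen is known to act, are not measured by these arrays.

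Hif3a encodes a subunit with inhibitory splice forms. It read 2.82, 3.15 and 2.95 on the wild-type arrays and 2.75, 2.75 and 2.75 on the knockout arrays. The knockout arrays were nearly equal and all lower, yet the difference was -0.22 ± 0.11 (SE, limma adjusted p = 0.753), and its other probes gave -0.50 and -0.13. Without wild type replicate 2 it was -0.13. Egln3, the prolyl hydroxylase that is itself a HIF target, read 0.77, 1.15 and 0.97 on the wild-type arrays and 1.62, 1.33 and 1.20 on the knockout arrays. Its knockout arrays were all higher, a difference of 0.42 ± 0.15 (SE, limma adjusted p = 0.49), and its other probe gave 0.58. Egln1, the main oxygen sensor, read -0.31, -0.96 and -0.99 on the wild-type arrays and -0.19, -0.36 and -0.97 on the knockout arrays. Its difference of 0.25 ± 0.26 ran from 0.09 to 0.48 with 1 array left out, and that of Egln2 was -0.02 ± 0.09. The groups overlapped in both.

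Relatives of 1 gene family could differ in response, and 13 such pairs were compared through the difference between their log2 differences, with an exact two-sided permutation test over arrays. In 5 of the 13 pairs the gap between the relatives did not overlap between genotypes, against 15.9% of all pairs of named genes tested. Pfkl exceeded Pfkm by 0.51, Bnip3 exceeded Bnip3l by 0.51, Pdk1 exceeded Pdk3 by 0.46, Egln3 exceeded Egln2 by 0.45 and P4ha2 exceeded P4ha1 by 0.42. Each had an exact p of 0.1, the smallest that 3 arrays against 3 allow, and 0.26 after Benjamini-Hochberg adjustment over the 13 pairs. Aldoc exceeded Aldoa by 0.59 and Stc1 exceeded Stc2 by 0.58, both with an exact p of 0.2. The other pairs, Pfkfb3 with Pfkfb4 and Plod2 with Plod1 among them (gaps of -0.04 and 0.03), had an exact p of 0.2 to 1.

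Genes of neighbouring pathways centred near 0. Of 12 tested glycolytic genes outside the 49, 7 were above 0 with a median of 0.03 and none was higher without overlap. Ldhb, the lactate dehydrogenase subunit that favours pyruvate formation, read 1.53, 1.69 and 1.84 on the wild-type arrays and 0.88, 1.12 and 1.22 on the knockout arrays. All knockout arrays were lower, opposite to Ldha, and the groups differed by -0.62 ± 0.13 (SE, limma adjusted p = 0.15). The 7 pentose phosphate genes had a median of 0.01 and none was without overlap. Genes of pyruvate oxidation and the TCA cycle had 10 of 28 above 0 and a median of -0.02, and Pdk2, a pyruvate dehydrogenase kinase that is not a member, differed by -0.36 ± 0.11 (SE, limma adjusted p = 0.397). Respiratory chain genes had 6 of 31 above 0 and a median of -0.05, with differences between -0.15 and 0.07. None of these genes passed the test.

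Other genes of the hypoxia pathway lay between these lists and the members, with 17 of 23 above 0 and a median of 0.19. Of these genes 5 (21.7%) were higher without overlap, against 6.37% of everything tested. Pgm1, a phosphoglucomutase that links glycogen to glycolysis, read 3.14, 3.28 and 3.36 on the wild-type arrays and 3.68, 3.68 and 3.64 on the knockout arrays, a difference of 0.40 ± 0.09 (SE, limma adjusted p = 0.182). Adm, the peptide adrenomedullin, was higher by 1.12 ± 0.17 with a limma adjusted p of 0.0583, which became 0.0231 when slides were blocked and 0.0915 when replicate numbers were.

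**Figure D4:**
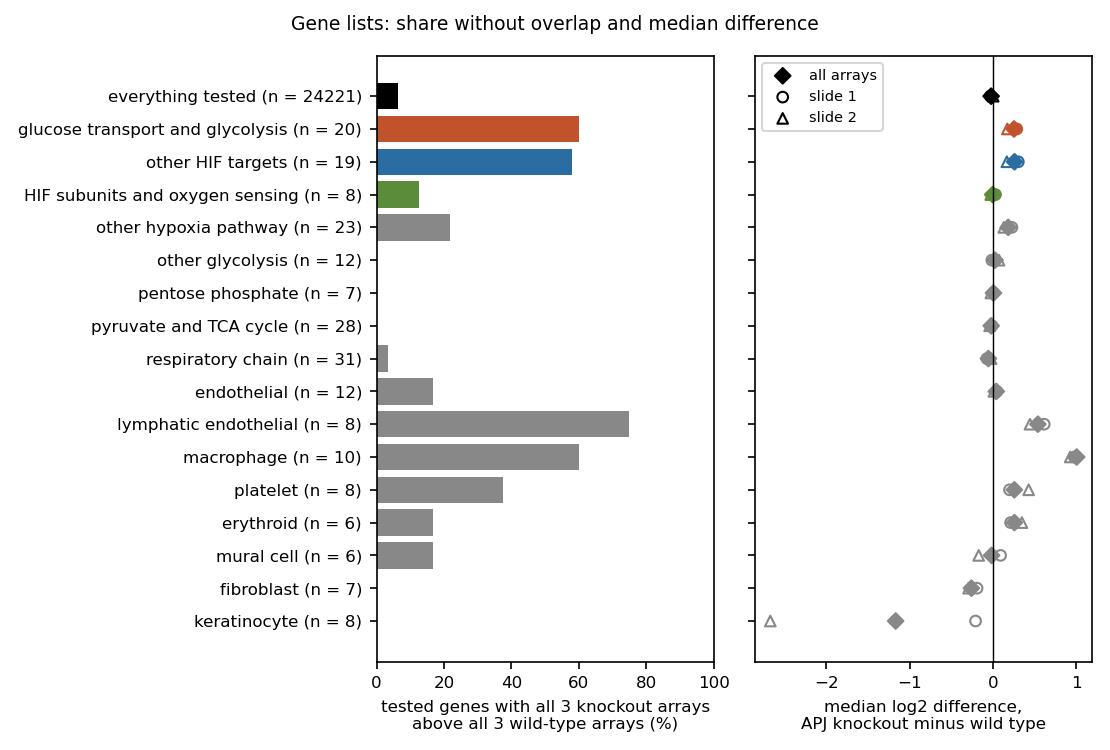
Left, the percentage of tested genes in each list with all 3 knockout arrays above all 3 wild-type arrays; right, the median log2 difference over all arrays (diamonds), within slide 1 (circles) and within slide 2 (triangles). Glycolysis (60%) and other HIF targets (57.9%) exceed everything tested (6.37%), as do lymphatic endothelial (75%) and macrophage markers (60%), while respiratory chain genes stand at 3.23%.

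The members' median lay above 0 within both slides and was smaller within slide 2. It was 0.28 within slide 1, with 2 arrays per genotype, and 0.15 within slide 2, with 1. Within both, 34 of 47 members were above 0, against 27.9% of everything tested. The difference was larger within slide 1 in 37 of the 47 members and in 21 of the 24 without overlap, against 58% of all features that were higher without overlap. Glycolysis had a median of 0.29 within slide 1 and 0.18 within slide 2, other HIF targets 0.31 and 0.17, and oxygen sensing genes 0.03 and -0.02. Keratinocyte markers also differed by slide, with a median of -0.21 within slide 1 and -2.67 within slide 2. When the array with the highest keratinocyte signal, wild type replicate 3, was left out, the keratinocyte median was -0.46. In that fit 29 members were higher without overlap, against 11% of everything tested. Groups of 2 and 3 arrays separate more easily than 3 and 3. Without APJ knockout replicate 3 instead, the number was 28, against 12.1%. The part of keratinocyte signal in the members' values was not tested.

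**Figure D5:**
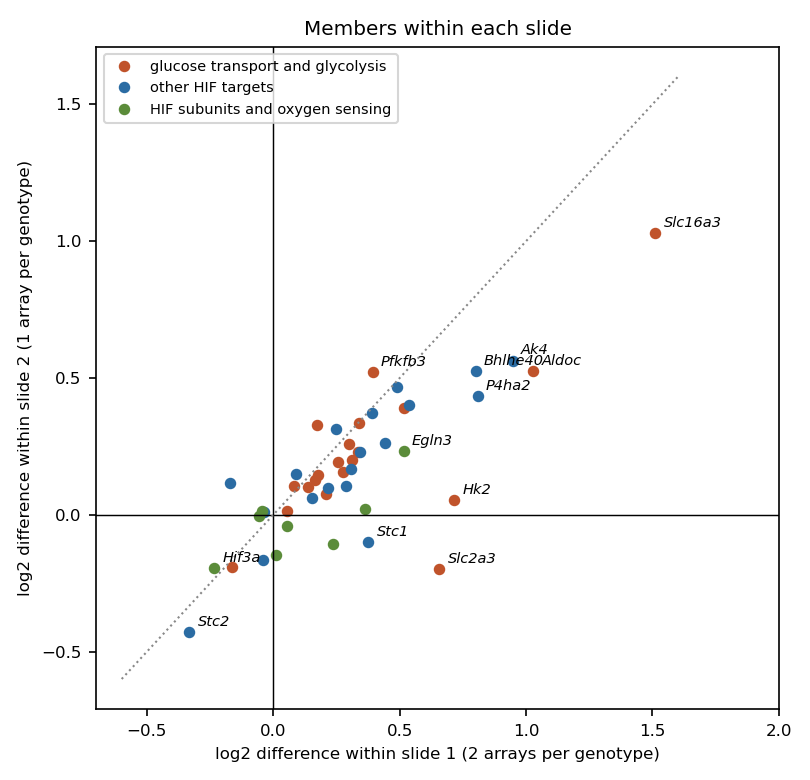
Log2 difference of each tested member, APJ knockout minus wild type, within slide 1 (x axis, 2 arrays per genotype) and within slide 2 (y axis, 1 array per genotype), with the line of equality dotted. Most points lie above 0 on both axes and below the line, and Slc2a3, Hk2 and Stc1 are high on slide 1 alone.

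Probes of 1 gene mostly took the same sign. Of 17 members with several tested probes, 4 (Bnip3, Bnip3l, Pfkfb3 and Pfkp) had probes of opposite sign, and in 2 more (Gpi1 and Gys1) another probe differed by under 50% of the value given. All 7 Gapdh probes were above 0, between 0.08 and 0.21. The second Pfkp probe differed by -0.72, with 5 of 6 arrays well above background, and Pfkp turned to -0.28 when the probes of a gene were averaged. That averaging also took Pfkfb3 to 0.14, Gys1 to 0.25 and Bnip3 to 0.30, and left 22 members higher without overlap, against 24 with the brightest probe.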

How the data were processed

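Each deposited scanner file gives the linear fluorescence intensity of every spot, which Agilent Feature Extraction 10.7.3.1 background-subtracted and detrended (per the file headers). In the authors' deposited value table these intensities were multiplied by 1 constant per array (2.29 to 3.69, origin not stated), so it is linear and not centred by gene, and its column medians were 60.3 to 67.0. RNA input was 0.1 µg, labelled with Cy3 (per the labels' protocols). Each array carried 59305 spots from 55681 probes, none saturated; 126 to 179 flagged as outliers were left out, and a probe with no unflagged spot on an array was not tested.

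Intensities were taken to log2 minus the array's 75th percentile and averaged per probe. A probe was tested if well above background on all arrays of at least 1 genotype, by the software's call on at least 50% of its spots. Symbols came from RefSeq accessions (47.4% of probes, 97.7% of curated accessions), and the brightest probe stood for a gene. limma 3.58.1 (R 4.3.3) fitted genotype across all genes, two-sided, adjusted by Benjamini-Hochberg. Alternatives were quantile and median scaling, normexp (on median signals, since mean signals were not a column), the deposited values, other filters on dim probes, probe means, a variance trend, slide and replicate blocks, and leaving out each array. The fit was run on simulated data with independent noise per gene and no slide effect, unlike these arrays, and its outcome is not reported here. Members and lists were chosen with earlier results of these data known. In each group the 8, 8 and 4 members with the smallest unadjusted p were described by array; the arrays of Slc2a1, Slc2a3, Hk2, Stc2 and Hif1a, the 5 paralogue pairs named and the 4 promoters printed were chosen after their values were seen. Other single genes came from fixed lists, of which some are not reported here. The count of members without overlap was added after the data were seen, with its alternatives.

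Slide 1 held replicates 1 and 2 of each genotype and slide 2 replicate 3. Deviations from the group means of same-numbered arrays correlated at 0.233, 0.152 and 0.649, all above 0.1, while arrays 1 and 2 correlated more strongly across numbers (0.358 and 0.279). The reported differences, SEs and p-values come from the fit of genotype alone, and the replicate block is given as an alternative.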

Additional observations from a re-analysis of the deposited data

How the results depend on the processing

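Over 10 alternatives of processing or model and 6 fits that each left out 1 array, 393 of 400 values for the 25 members described array by array kept their sign and their side of the threshold. With the slide block, the replicate block, the variance trend and the other filters on dim probes, these members' differences could not change. Only their side of the threshold could, so the tally overstates how far the signs were tried. Vhl reversed to 0.018 with normexp background correction, Hif1a turned below 0 without wild type replicate 3, APJ knockout replicate 1 or APJ knockout replicate 2 (range with 1 array left out -0.056 to 0.412), and Slc16a3 passed with median scaling, with the slide as a block and without wild type replicate 3. The number of members called was therefore 1 with median scaling and 1 with the slide as a block, 0 in the fit without a block, 0 when replicate numbers were blocked, and 0 to 1 with 1 array left out. Members higher without overlap numbered 22 to 29 with other scalings, filters, probes or 1 array left out, against 4.05% to 12.1% of everything tested. On looser measures, 29 members did not overlap within each slide (12.9% of everything tested, 15% of named genes). In every same-numbered pair 33 were higher (17.1% of everything tested). The median of other HIF targets ran from 0.20 to 0.29 with 1 array left out, and no alternative moved the median of everything tested by over 0.1.

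Across everything tested 134 features were called, 3 without a filter on dim probes, 286 with the slide as a block, 5 with the replicate block, and 12 (without wild type replicate 2) to 61 with 1 array left out. Aplnr kept its difference of -1.69 without the filter and with the replicate block but did not pass (limma adjusted p = 0.186 and 0.0786), and ran from -1.85 to -1.57 with 1 array left out. The replicate block changed no member's call. Signal over background limits Pfkfb2 and Mxi1, which were not well above background on any array.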
